A study of Mus musculus with 28 samples.

Results

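The mouse gene Rpl13a carries 4 small nucleolar RNAs (snoRNAs) in its introns, Snord32a, Snord33, Snord34 and Snord35a. These 4 snoRNAs and the host gene are described here, 5 of the 30210 features in the deposited tables, taken by matching the Ensembl identifiers to gene symbols. The study asked which RNAs come down with the kinase PKR when cells are given palmitate. RNA was counted after immunoprecipitation from lysates of mouse embryonic fibroblasts (MEF), followed by Trizol extraction, fragmentation and a small RNA library kit. All cells were reconstituted with PKR, in its wild-type form (WT) or in a form with a mutation in each double-stranded RNA-binding motif (RM), and were mock-treated or given 0.1 mM palmitic acid. Datasets A and B each held 3 libraries, called biological replicates in the labels, so that p-values measure the spread between such libraries, in each of the groups WT mock, WT palmitate, RM mock and RM palmitate, which gives 8 groups. Dataset C held 1 library per group. The column names of dataset B carry a 2hr mark that the labels do not explain, and whether each PKR form was a clone or a pool is not given in the sources used here. No input RNA or control precipitate is among the samples, so the abundance of an RNA, its binding to PKR and its background recovery cannot be told apart, nor can fewer cells and less RNA per cell.

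Box C/D snoRNAs guide the methylation of ribose at chosen sites of ribosomal RNA. They are cut from introns of a host transcript, and a pair of short motifs, the C box near the 5′ end and the D box near the 3′ end, binds the core proteins fibrillarin, Nop56, Nop58 and Snu13. Snord33 guides a site in the small-subunit ribosomal RNA, Snord34 and Snord35a guide sites in the large-subunit RNA, and Snord32a has targets in both. Rpl13a itself encodes a protein of the large ribosomal subunit, which in myeloid cells can also leave the ribosome to silence the translation of inflammatory mRNAs. The snoRNAs of the Rpl13a locus have been linked to palmitate toxicity in earlier genetic work, which is why they are of interest in a palmitate experiment. A role of each single snoRNA is not claimed here. PKR is a kinase switched on by double-stranded RNA.

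The 4 snoRNA sequences are shown because the comparisons below turn on these RNAs, and Snord35b is shown as the related copy of Snord35a. They were read 5′ to 3′ from the transcripts of GENCODE M21, with T for U. Capitals mark the first match to the C box letters TGATGN and the last match to the D box letters CTGA, searched on the RNA strand only.
Snord32a: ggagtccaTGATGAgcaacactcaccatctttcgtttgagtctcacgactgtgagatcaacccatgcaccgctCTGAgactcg
Snord33: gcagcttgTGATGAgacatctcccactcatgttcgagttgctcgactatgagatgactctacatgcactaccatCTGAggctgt
Snord34: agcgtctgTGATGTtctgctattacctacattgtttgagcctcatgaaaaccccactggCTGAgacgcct
Snord35a: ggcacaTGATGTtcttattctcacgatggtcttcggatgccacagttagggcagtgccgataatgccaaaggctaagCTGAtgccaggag
Snord35b: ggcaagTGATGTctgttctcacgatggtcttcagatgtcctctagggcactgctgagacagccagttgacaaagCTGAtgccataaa

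All 4 members hold both motifs within 15 bases of their ends, as do 85 of the 98 Snord transcripts in the annotation (86.7%) and 0 of the 42 Snora transcripts. The C box starts at base 9 in Snord32a, Snord33 and Snord34 and at base 7 in Snord35a. The bases outside the boxes pair with each other over runs of 5, 4, 5 and 4 Watson-Crick pairs in Snord32a, Snord33, Snord34 and Snord35a. Snord32a and Snord33 were the most alike of the 4, with 65.9% identity in a global alignment, and the other pairs of members lay between 51.2% and 59.5%. Snord35a and Snord35b shared 73.6%, so short fragments from their common stretches could have been counted for either one.

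On mm9, the build in the submitters' processing notes, all 5 features lie on the minus strand of chromosome 7, counted from 1. Snord32a is at chr7:52382752-52382834, Snord33 at chr7:52382234-52382317, Snord34 at chr7:52381971-52382040 and Snord35a at chr7:52381716-52381805. Rpl13a spans chr7:52380928-52391787, with 2172 exonic bases in the tables. In the Rpl13a transcript of GENCODE M21 with 8 exons that was taken as the reference, the snoRNAs sit in introns 2, 4, 5 and 6 in that order, starting 31, 43, 38 and 42 bases after the 5′ splice site. Snord33 also lies wholly inside exons of 2 annotated Rpl13a transcripts that retain its intron, whereas no annotated exon covers the others.

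Total counts ran from 254762 to 8036622 in dataset A, where RM palmitate replicate 2 was by far the shallowest, and from 2204502 to 7122087 in dataset B. They ran from 7462653 to 11658726 in dataset C. All 12 fibroblast marker genes were counted in A and B, with a summed level of 8033 to 26857 CPM, the usual measure of counts in proportion to the library total. Adgre1, a macrophage marker, and Cd3e, a T cell marker, were at 0 in all 24 libraries, and the summed list of macrophage and lymphocyte markers reached at most 3.72 CPM. Levels below are CPM after TMM scaling, done apart for A and B, and ± after a log2 difference is its SE. Features of the C/D class took 3.08% to 19.8% of the counts in the libraries of A and 0.289% to 2.18% in those of B.

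Per kilobase, Snord32a was the most abundant member in every group of A and B. Its group means ran from 11775 to 25209 CPM per kilobase in A, against 1769 to 3327 for Snord34, 841 to 1750 for Snord35a, 857 to 1149 for Snord33 and 377 to 814 for Rpl13a. In dataset B Snord32a ran from 1847 to 2388 CPM per kilobase, and Snord33, Snord34 and Snord35a all fell between 197 and 764. Snord32a supplied a median of 78.4% of the counts of the 4 snoRNAs in the libraries of A and 54.2% in those of B. Single libraries scattered widely around several of these means, as the plot of levels by group shows: Snord32a stood at 977 ± 1007 CPM (SD, 3 libraries) in RM palmitate of A and at 186 ± 249 CPM in WT mock of B.

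**Figure D1:**
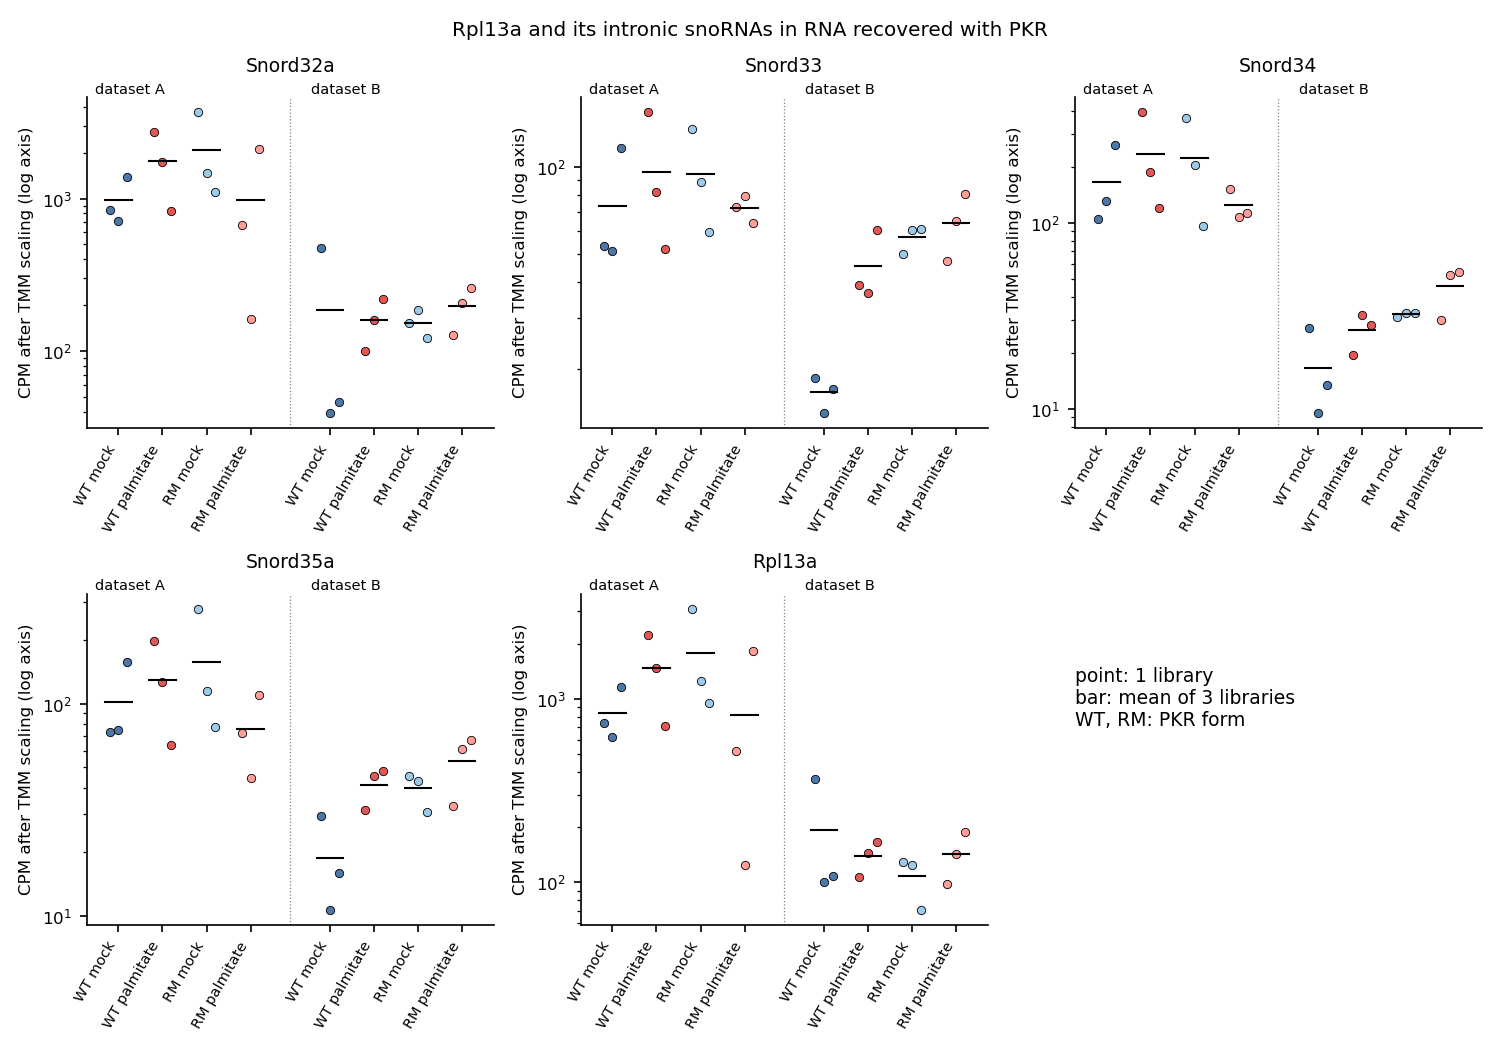
CPM after TMM scaling (log axis) of each member in the 4 groups of datasets A and B; each point is 1 library and each bar the mean of 3. Snord33 in WT mock of dataset B, at 14.0 to 18.6 CPM, lies below every other library of that dataset, and WT mock replicate 1 of B stands above its group for Snord32a and Rpl13a.

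Snord33 was the member with the clearest pattern. In dataset B, WT mock libraries held 18.6, 14.0 and 17.1 CPM in replicates 1, 2 and 3, from 135, 92 and 102 counts. WT palmitate libraries held 39.0, 36.5 and 60.6 CPM, RM mock libraries 49.9, 60.6 and 61.1 CPM, and RM palmitate libraries 47.3, 64.9 and 80.4 CPM. All 3 WT mock libraries lay below the 9 others, and the other groups overlapped each other. The group means were 16.6 ± 2.34 CPM (SD, 3 libraries) in WT mock and 45.4 ± 13.3 after palmitate, and with RM 57.2 ± 6.31 and 64.2 ± 16.6. Snord33 rose with palmitate with WT PKR by 1.46 ± 0.22 (SE) on the log2 scale, 2.75-fold (edgeR adjusted p = 0.000976). In mock cells WT libraries held less of it than RM libraries, by a log2 difference of -1.78 ± 0.22 (adjusted p = 0.000306). With RM PKR its palmitate difference was 0.15 ± 0.21 (adjusted p = 0.687), and between WT and RM under palmitate it was -0.48 ± 0.21 (adjusted p = 0.176). The difference between the palmitate changes of the 2 PKR forms was 1.31 ± 0.30, which did not pass over all features in edgeR (adjusted p = 0.102) and did in DESeq2 (adjusted p = 0.0140). The 3 comparisons that involve WT mock share those 3 libraries, so they are not separate evidence. Leaving out any 1 library kept the call of Snord33 for palmitate with WT and for WT against RM in mock, with log2 differences from 1.19 to 1.60 and from -1.89 to -1.69.

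Dataset A showed no such separation for Snord33. Replicates 1, 2 and 3 held 53.3, 51.1 and 116 CPM in WT mock and 155, 82.3 and 52.1 CPM in WT palmitate. The RM libraries held 136, 88.5 and 59.5 CPM in mock and 72.4, 79.3 and 64.2 CPM under palmitate. Every pair of groups overlapped, and the palmitate difference with WT was 0.40 ± 0.40 on the log2 scale (edgeR adjusted p = 0.746). The palmitate change with WT in B less that in A was 0.99 ± 0.55 (adjusted p = 0.426). Averaged over both datasets it was 0.95 ± 0.28 (adjusted p = 0.0383), but that call did not hold without the filter on low counts (adjusted p = 0.0631) or with the replicate number as a block (0.87, adjusted p = 0.0659). It was also lost when WT mock replicate 1 or 2 of A, WT palmitate replicate 1 of A, any WT mock replicate of B or WT palmitate replicate 3 of B was left out, with adjusted p from 0.0587 to 0.111.

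Snord35a had the next clearest pattern in dataset B. WT mock libraries held 29.5, 10.7 and 15.9 CPM and WT palmitate libraries 31.4, 45.3 and 48.0 CPM. RM mock libraries held 45.6, 43.2 and 30.7 CPM, and RM palmitate libraries 33.0, 61.0 and 67.6 CPM. The WT mock libraries were again the lowest, though replicate 1 lay just under the lowest libraries of RM mock and WT palmitate. The palmitate difference with WT, 1.14 ± 0.39 on the log2 scale, did not pass (edgeR adjusted p = 0.0840), nor did WT against RM in mock, -1.10 ± 0.39 (adjusted p = 0.0977). Both passed without WT mock replicate 1, at 1.66 (adjusted p = 0.0185) and -1.61 (adjusted p = 0.0188), and in DESeq2 (adjusted p = 0.0137 and 0.0220). For the fit without that library the share of all features called is not given here. In dataset A the libraries held 73.7 to 158 CPM for WT mock and 64.1 to 197 after palmitate, and for RM 77.4 to 281 and 44.8 to 110, and all groups overlapped.

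Snord34 in dataset B was at 27.0, 9.44 and 13.4 CPM in WT mock and at 19.5, 32.0 and 28.1 CPM in WT palmitate. The RM mock libraries were nearly level at 31.1, 32.7 and 32.5 CPM, and the RM palmitate libraries were at 30.1, 52.1 and 54.2 CPM. WT mock lay below RM mock without overlap, by a log2 difference of -0.94 ± 0.37 that did not pass (edgeR adjusted p = 0.123) and did in DESeq2 (adjusted p = 0.0483). Its palmitate difference with WT was 0.65 ± 0.37 (adjusted p = 0.269). Without WT mock replicate 1 both passed, at -1.50 (adjusted p = 0.00482) and 1.22 (adjusted p = 0.0145). As the share of all features called in that reduced fit is not given, these calls are not a result about Snord34. In dataset A the groups overlapped, with 104 to 263 CPM for WT mock and 119 to 393 after palmitate, and for RM 96.2 to 364 and 107 to 152.

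Snord32a in dataset B depended on 1 library. WT mock replicate 1 held 474 CPM (3440 counts), against 39.1 and 46.3 CPM (257 and 277 counts) in replicates 2 and 3. The WT palmitate libraries held 99.5, 159 and 220 CPM, RM mock 153, 185 and 122 CPM, and RM palmitate 127, 206 and 261 CPM. WT mock thus held both the highest and the lowest libraries of the dataset. That library also had 2.18% of its counts in C/D snoRNAs, against 0.289% and 0.357% in the other WT mock libraries of B. The palmitate difference of Snord32a with WT was -0.23 ± 0.88 on the log2 scale with all libraries (edgeR adjusted p = 0.890) and 1.91 without it (adjusted p = 0.0255). WT against RM in mock turned from 0.28 ± 0.88 (adjusted p = 0.869) to -1.85 (adjusted p = 0.0276). What share of all features was called without that library is not given, so these values show only the dependence on it.

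In dataset A, Snord32a reached 844, 710 and 1392 CPM in WT mock, 2733, 1748 and 832 CPM in WT palmitate and 3691 CPM in RM mock replicate 1. The other RM mock libraries held 1474 and 1112 CPM, and RM palmitate held 667, 162 and 2103 CPM. The SD was 361 CPM for WT mock and 951 after palmitate, and for RM 1397 and 1007, and all groups overlapped. Differences of 0.85 ± 0.72 with WT and -1.09 ± 0.72 with RM after palmitate did not pass (edgeR adjusted p = 0.693 and 0.527). The libraries with the most Snord32a were also those with the largest C/D share: RM mock replicate 1 had 19.8% and WT palmitate replicate 1 had 16.3% of their counts in C/D snoRNAs. The part of this share in the member differences was not tested.

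Rpl13a, the host, passed the test in no comparison. In dataset B it was at 367, 101 and 108 CPM in WT mock and at 107, 145 and 166 CPM after palmitate. With RM it was at 129, 124 and 70.8 CPM without and at 97.8, 142 and 187 CPM with palmitate. WT mock replicate 1 stood above all others, as for Snord32a, and the groups overlapped. Its palmitate difference with WT in B was -0.46 ± 0.53 on the log2 scale (edgeR adjusted p = 0.592), and 0.43 without that library (adjusted p = 0.452). In dataset A it ran from 124 CPM in RM palmitate replicate 2 to 3108 CPM in RM mock replicate 1.

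Over the 5 members, 1 rose with palmitate with WT PKR in dataset B, where 15.5% of all 12466 features tested were called in either direction and 9.43% rose. In WT against RM in mock 1 of 5 was called and was lower, where 14.1% of features were called and 7.88% were lower. With RM PKR 0 of 5 were called for palmitate (7.53% of features), and 0 of 5 for WT against RM under palmitate (7.81%), and DESeq2 also called 0 members in both. At an unadjusted p under 0.05 these 2 comparisons held 0 and 1 members, the latter being Snord33, beside 26.9% and 25.7% of all features. In the interaction 0 of 5 and 0.0% of features were called in edgeR, with 1 member, Snord33, among the 2011 features (16.1%) with an unadjusted p under 0.05. DESeq2 called 396 features there (3.78%), with Snord33 among them. In dataset A 0 of 5 members were called in any comparison by edgeR or DESeq2, and none had an unadjusted p under 0.05, where 4.14% to 18.4% of features did. There edgeR called 0.335% of 11328 features for palmitate with WT, 0.477% with RM, 3.74% for WT against RM in mock, 3.43% for WT against RM under palmitate and 0.0% in the interaction. In the average of A and B 1 of 5 rose with palmitate with WT (9.52% of 12683 features called, 6.04% higher), 0 of 5 with RM (9.04%), and 0 of 5 differed in the interaction (0.0%, with DESeq2 calling 43 features and no member). The palmitate changes in B less those in A were called for 0.189% of features with WT and 0.00788% with RM, and for no member. Libraries of the groups did not overlap for 2 members in palmitate against mock with WT in B, where this held for 38.8% of features, and for 3 in WT against RM in mock, where it held for 36.9%. They overlapped for all 5 in the other comparisons of B, with RM (30.2% without overlap) and under palmitate (29.9%), and in those of A (18.4%, 21.0%, 32.6% and 18.6% in the order above).

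**Figure D2:**
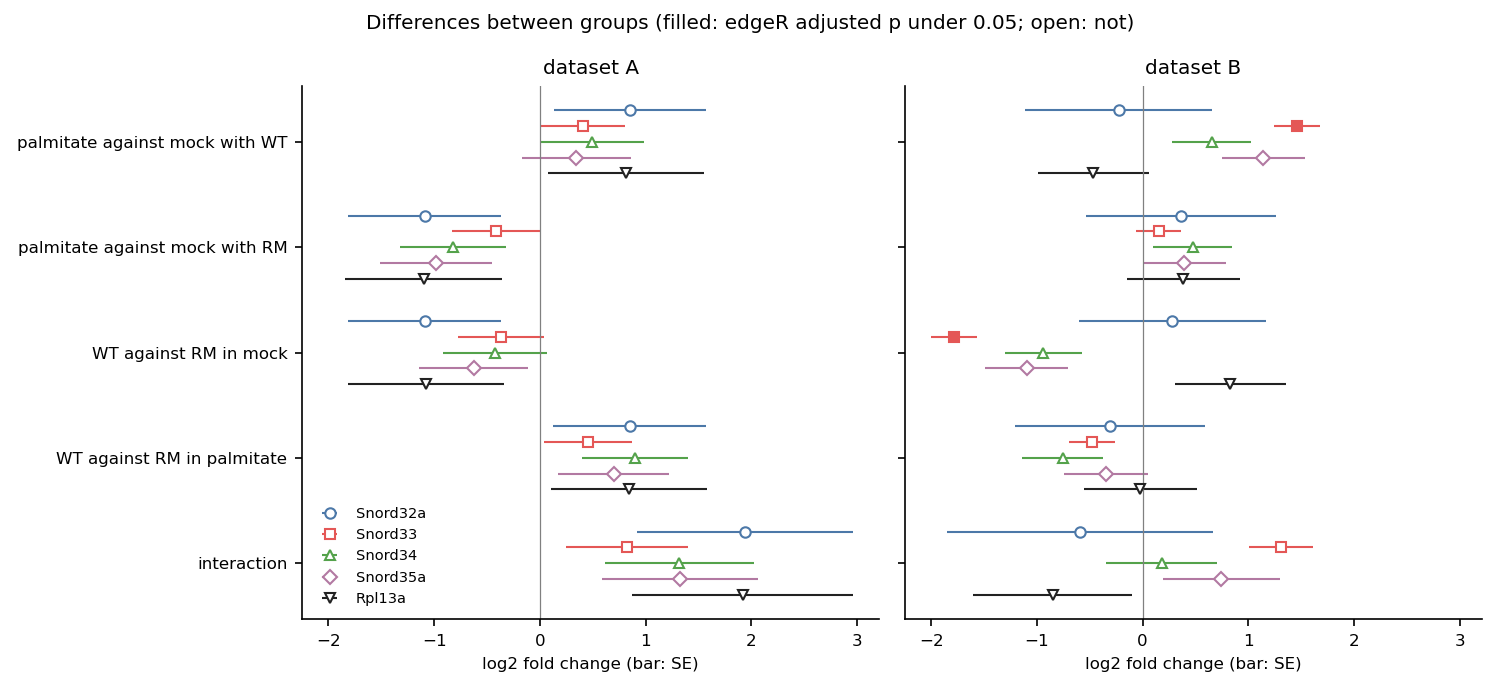
Log2 fold change with its SE for each member in the 5 comparisons of dataset A (left) and dataset B (right), with filled symbols for an edgeR adjusted p under 0.05. Only Snord33 in dataset B is filled, at 1.46 for palmitate against mock with WT and at -1.78 for WT against RM in mock.

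With RM PKR the palmitate differences in B turned with the scaling for 4 of the 5 members. Snord32a, Snord33, Snord35a and Rpl13a had log2 differences of 0.36, 0.15, 0.40 and 0.39 after TMM scaling and of -0.09, -0.27, -0.04 and -0.06 after scaling by total counts. Snord34 had the largest of these differences, 0.47 ± 0.37, and kept its direction at 0.05 by total counts. The median of all features moved from -0.01 to -0.39 with that scaling, so that relative to it the members stayed higher. None passed under either scaling. RM palmitate replicates 2 and 3 of B had the lowest TMM factors of that dataset, at 0.820 and 0.637.

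The host count needs care as a measure of the Rpl13a mRNA. In dataset A the count of Rpl13a moved with that of Snord32a, between 2075 and 20462 counts in 11 libraries and at 36 counts in the shallow RM palmitate replicate 2. The ratio of Snord32a to Rpl13a stayed between 1.15 and 1.31 in all 12 libraries, and the host, whose exons are far longer, had fewer counts than the snoRNA in 12 of 12 libraries. Among the 88 pairs of a snoRNA and its host that could be compared in A, the spread of this log2 ratio, with an SD of 0.06, ranked 2 from the smallest. In dataset B the host was below Snord32a in 9 of 12 libraries and the ratio ran from 0.388 to 1.72. In their deposited table the authors gave Rpl13a a SpliceChiPVal score of 548 for WT in dataset A, the highest of 30210 features, and scores of 96.9 and 98.1 for RM in A and B. The same score for Rpl13a was 0.0 for WT in dataset B in the authors' deposited table. The tool behind that score is not given in the sources used here.

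**Figure D3:**
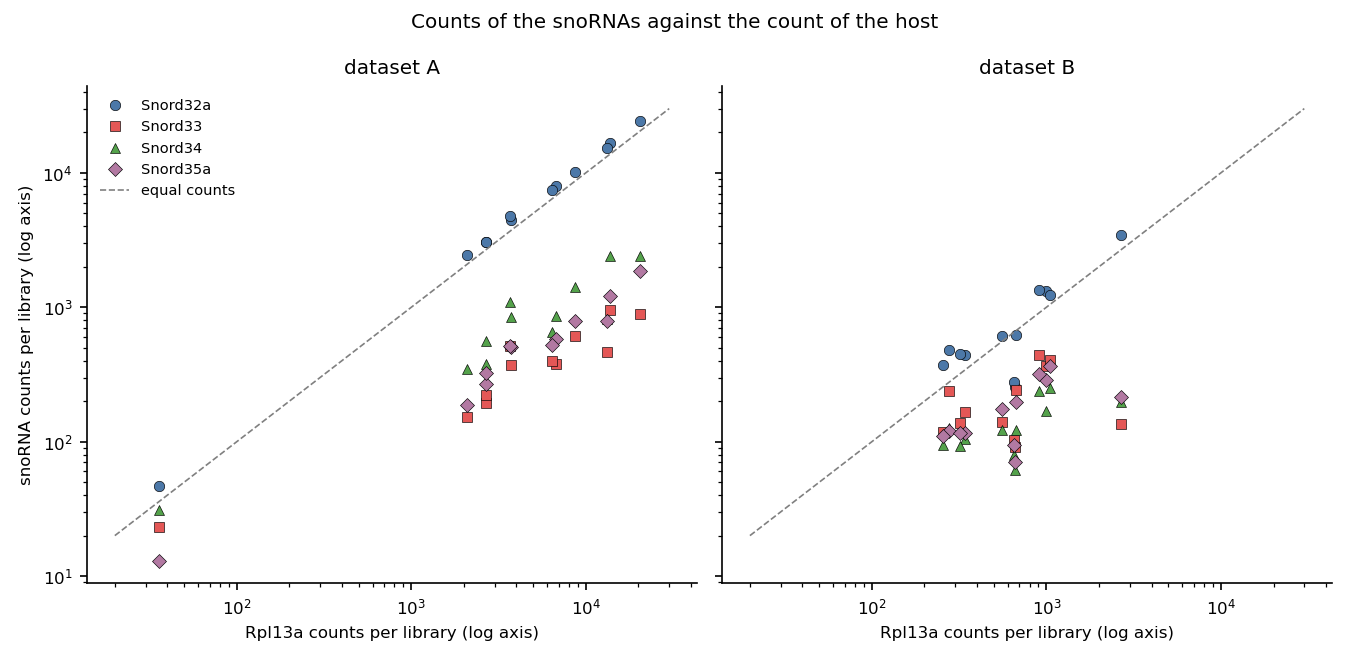
Counts of each snoRNA against the Rpl13a count of the same library, both on log axes, in datasets A and B, with a dashed line where both are equal. In dataset A the 12 points of Snord32a run along the line at 1.15 to 1.31 times the host count.

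A feature that overlaps Rpl13a had its highest levels in the same libraries. Gm45713, the GENCODE M21 name of a protein-coding feature on the same strand that overlaps the 5′ side of Rpl13a, spans chr7:52386558-52391802 in the tables, outside all 4 snoRNAs. It held 72.4 to 2554 CPM in A and 6.39 to 224 CPM in B, with its highest level in the same library as Snord32a in both datasets. Of 10218 features it was the one most like Rpl13a over the 24 libraries, with r = 0.90 for log2 CPM centred on the dataset mean. In counts, Gm45713 held 2125 beside 2661 of Rpl13a in WT mock replicate 1 of A, and 16816 beside 20462 in RM mock replicate 1. In the shallow RM palmitate replicate 2 of A it held 21 beside 36. In WT mock replicate 1 of B the counts were 1623 beside 2667. WT mock replicates 2 and 3 of B held 49 beside 662 and 58 beside 648. Where along these loci the reads lie, and whether the same reads were counted for both features, was not tested.

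Ratios of snoRNA to host counts need no scaling between libraries. In dataset B, Snord33 had a ratio of 0.0506, 0.139 and 0.157 in WT mock and of 0.366, 0.251 and 0.365 after palmitate. With RM it was 0.387, 0.490 and 0.863 in mock and 0.484, 0.457 and 0.430 after palmitate. WT mock was the lowest group without overlap, WT palmitate the next lowest, and the RM groups overlapped each other. How many other snoRNA and host pairs separated in this way was not counted. Snord35a followed the same order, with 0.0802, 0.106 and 0.147 in WT mock and 0.294, 0.312 and 0.288 after palmitate, and for RM 0.354, 0.350 and 0.433, then 0.337, 0.430 and 0.361. Snord34 had 0.0735, 0.0937 and 0.123 in WT mock and 0.183, 0.220 and 0.169 in WT palmitate, against 0.241 to 0.458 in both RM groups. Snord32a was at 1.29, 0.388 and 0.427 in WT mock, at 0.933, 1.10 and 1.32 in WT palmitate and at 1.19 to 1.72 with RM.

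The ratio rose with palmitate with WT PKR for 3 of the 4 snoRNAs in dataset B. All 4 ratios divide by the same Rpl13a count in each library, so they are not separate evidence. The log2 difference was 1.64 ± 0.43 for Snord33 (limma adjusted p = 0.00854), 1.0 ± 0.30 for Snord34 (adjusted p = 0.0177) and 1.47 ± 0.26 for Snord35a (adjusted p = 0.000978). For Snord32a it was 0.88 ± 0.40 (adjusted p = 0.0847). The Snord34 call was lost without WT mock replicate 2 (adjusted p = 0.0507) or WT palmitate replicate 2 (adjusted p = 0.0703), and Snord32a passed only without WT mock replicate 1, at 1.44 (adjusted p = 0.000165), among the 6 libraries left out in turn. The same comparison called 50.6% of the 89 snoRNA and host pairs tested, whose median difference was 1.03. All 4 ratios were lower with WT than with RM in mock cells, by -1.28 for Snord32a, -2.40 for Snord33, -1.7 for Snord34 and -1.81 for Snord35a (adjusted p from 0.000569 to 0.0200). That comparison also called 50.6% of pairs, 48.3% as lower, with a median of -1.09. It uses the same WT mock libraries as the palmitate comparison with WT. The Snord32a call was lost without WT mock replicate 2 or 3 or RM mock replicate 2 or 3, with adjusted p from 0.0541 to 0.0807. With the exact permutation test over 3 against 3 libraries the Snord33, Snord34 and Snord35a ratios gave p = 0.1 in both comparisons, the smallest p that this design allows. These 3 ratios gave the same permutation p in WT against RM under palmitate in B, where limma called none. For the Snord32a ratio the exact permutation test gave p = 0.3 for palmitate with WT and p = 0.2 for WT against RM in mock.

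The palmitate change of the ratio was larger with WT than with RM for Snord33, by 1.90 ± 0.60 (limma adjusted p = 0.0420), and for Snord35a, by 1.48 ± 0.36 (adjusted p = 0.0256), in dataset B. For Snord32a it was 0.96 ± 0.56 (adjusted p = 0.275) and for Snord34 0.94 ± 0.43 (adjusted p = 0.146). This interaction called 21.3% of pairs, 19.1% as higher. Both calls depended on single libraries of B. Neither snoRNA passed without WT palmitate replicate 2 or 3, RM mock replicate 2 or 3, or RM palmitate replicate 1 or 3, while the differences stayed between 1.38 and 2.20 for Snord33 and between 1.26 and 1.7 for Snord35a over the 12 libraries left out in turn. Snord33 was also lost without WT palmitate replicate 1, RM mock replicate 1 or RM palmitate replicate 2. With RM PKR 0 of 4 ratios were called for palmitate (1.12% of pairs), and 0 of 4 for WT against RM under palmitate (0.0% of pairs). In the latter 1 of 4, Snord34, had an unadjusted p under 0.05, at 0.0289, beside 8.99% of the pairs. In the former none of the 4 had one, beside 12.4% of the pairs.

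Dataset A gave 0 of 4 ratios called in all 5 comparisons, as it gave 0.0% of its 88 pairs, and none of the 4 had an unadjusted p under 0.05, where 1.14% to 6.82% of pairs did. There the Snord33 ratio was 0.0725, 0.0825 and 0.100 in WT mock and 0.0692, 0.0558 and 0.0733 in WT palmitate. The Snord35a ratio was 0.100, 0.121 and 0.136 in WT mock and 0.0877, 0.0855 and 0.0901 in WT palmitate, so palmitate libraries were the lower ones, opposite to B. RM mock of A held Snord33 ratios of 0.0438, 0.0710 and 0.0625 and Snord35a ratios of 0.0904, 0.0917 and 0.0814. For both, WT mock thus lay above RM mock without overlap, also opposite to B. The exact permutation test gave p = 0.1 for both, and for Snord35a in palmitate against mock with WT. That p restates the lack of overlap and is the smallest this design allows. How many of the 88 pairs separated in this way was not counted, so the separation is not a result about the members. RM palmitate of A spread widest, with Snord33 ratios of 0.140, 0.639 and 0.0353, the second from the shallow library with 23 Snord33 and 36 Rpl13a counts. The palmitate change with WT in B less that in A was 1.90 ± 0.62 for the Snord35a ratio and 2.0 ± 0.93 for the Snord33 ratio (adjusted p = 0.481 for both), where 0.0% of pairs were called. Averaged over A and B 0 of 4 ratios were called for palmitate with WT (18.0% of pairs). The interaction of the ratio in A was -1.71 ± 1.13 for Snord33 and -1.17 ± 0.75 for Snord35a (limma adjusted p = 0.563 for both). These signs were opposite to B. The average of both datasets was 0.09 ± 0.66 and 0.15 ± 0.44 (limma adjusted p = 0.939 and 0.822), where 0.0% of pairs were called.

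**Figure D4:**
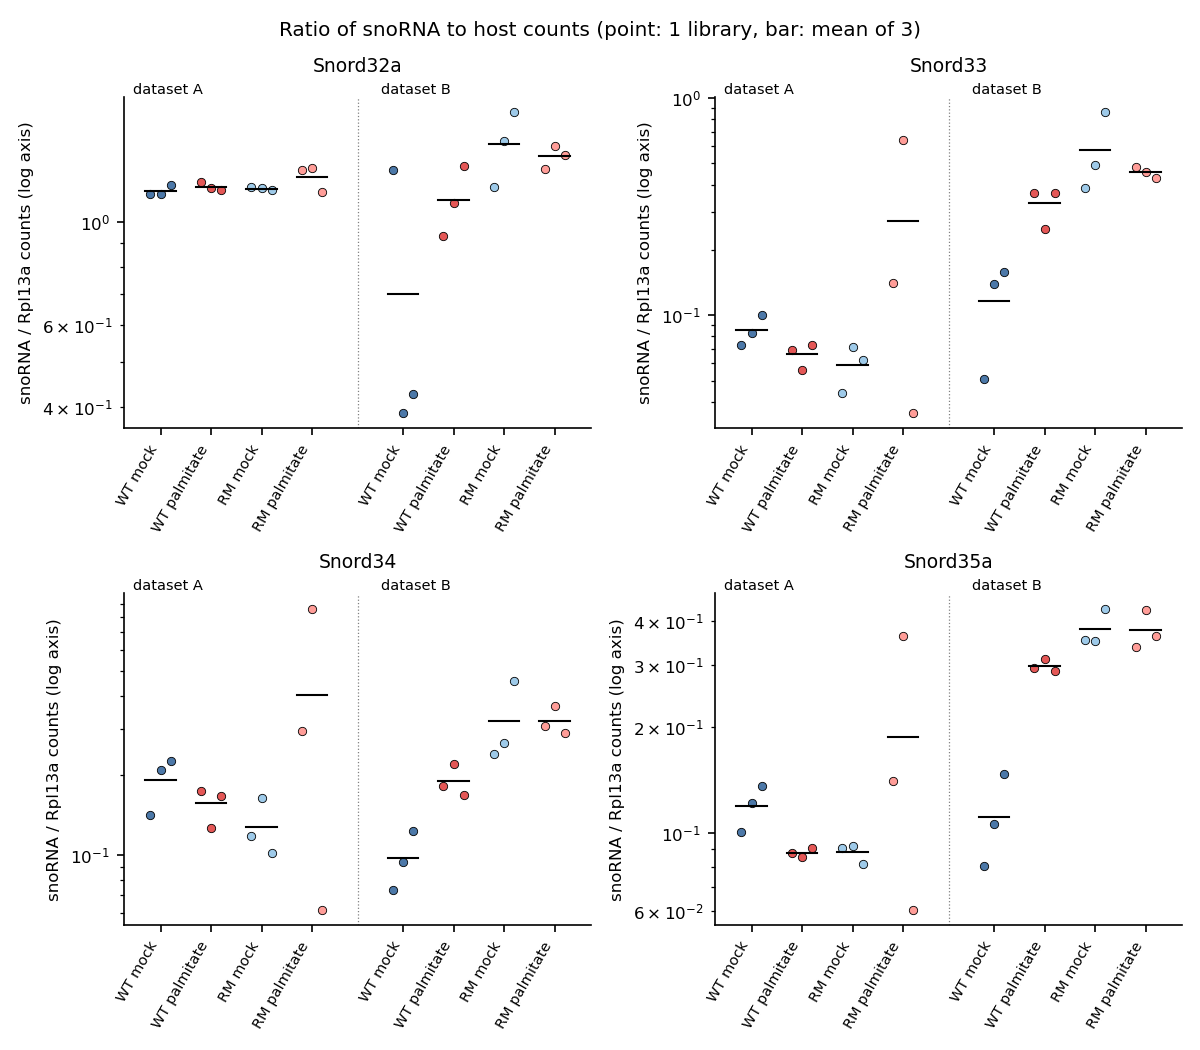
Ratio of snoRNA to Rpl13a counts (log axis) in the 4 groups of datasets A and B; each point is 1 library and each bar the mean of 3. In dataset B the WT mock libraries are lowest for Snord33, Snord34 and Snord35a, and in dataset A the Snord32a points form a flat line at 1.15 to 1.31.

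Because the host count followed Snord32a in dataset A, the sum of 62 ribosomal protein mRNAs whose spans hold no small RNA was tried as another denominator, a choice made after seeing the data. In B the host followed Snord32a less closely, with an SD of 0.69 for the log2 ratio, rank 29 from the smallest of 89 pairs. In dataset B the palmitate differences with WT were then 1.61 for Snord33 (limma adjusted p = 0.000390), 0.97 for Snord34 (adjusted p = 0.0308), 1.44 for Snord35a (adjusted p = 0.00510) and 0.86 for Snord32a (adjusted p = 0.338), where 70.8% of pairs were called. WT against RM in mock was -2.01 for Snord33 (adjusted p = 0.000153) and -0.88 for Snord32a, which no longer passed (adjusted p = 0.324), where 68.5% of pairs were called.

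Other intronic snoRNAs moved in these comparisons too, and the counts of calls beside the members' are as follows. In palmitate against mock with WT in dataset B, 7 of 16 C/D snoRNAs of other ribosomal protein genes rose and 0 fell, with a median log2 fold change of 0.98 against 0.90 for the 4 members and -0.05 for all features. Of 39 C/D snoRNAs with other hosts 14 rose (median 0.77), and of 30 H/ACA snoRNAs tested, a class that guides pseudouridylation, 25 rose (median 1.58). In WT against RM in mock 7 of the 16, 11 of the 39 and 24 of the 30 were lower and 0 were higher, with medians of -1.04, -0.92 and -1.42, beside 1 of 4 and -1.02 for the members. Ribosomal protein mRNAs other than Rpl13a did not rise, with 0 of 89 higher and 7 lower after palmitate with WT (median -0.17). With RM in B, after TMM scaling, palmitate raised 0 of the 16, 3 of the 39 and 7 of the 30, and 0 fell. Their medians were 0.44, 0.57 and 0.63, beside 0.38 for the members and -0.01 for all features, of which 7.53% were called. Of the 89 ribosomal protein mRNAs 6 rose there and 0 fell (median 0.27). In dataset A no feature of these lists was called after palmitate with either PKR form. The palmitate medians there were 0.45 for the members and 0.53 for the 16 with WT, and -0.90 and -0.69 with RM.

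Members differed in what they resembled. Over the 24 libraries of A and B, with log2 CPM centred on the dataset mean, Snord33 and Rpl13a had r = 0.04, and Snord32a and Rpl13a had r = 0.88. With the group means taken out these became 0.32 and 0.95. Snord33 was most like ENSMUSG00000093321 (r = 0.98), Snord60 (0.95) and the U8 snoRNA Snord118 (0.94). Snord32a was most like Snord12 (0.96), Snord99 (0.95) and Snord110 (0.94), and Snord12 was also the second most like Rpl13a (0.89). Snord34 was closest to Snord123 (0.95) and Snord35a to Gm25855 (0.94). These correlations share libraries and depth and are given as a description. Taken the same way within groups, Snord34 and Snord35a had r = 0.84 over the 24 libraries, Snord32a and Snord35a 0.86 and Snord32a and Snord33 0.37.

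Snord35b, the related copy, was far less abundant than Snord35a, at 1.22 to 2.17 CPM for WT mock and 3.68 to 9.38 after palmitate in dataset B, and for RM 3.84 to 5.20 and 4.30 to 6.99. WT mock was again the lowest group, with no overlap with the others. The pseudogene Rpl13a-ps1 held at most 19 counts in any library of A and B.

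Dataset C, with 1 library per group and no test, is described by counts with exact 95% intervals that cover counting error only. The columns marked t and c were read as palmitate and mock. All counts of the 5 members were on the sense strand, with 0 on the other strand, which allows an antisense share of up to 7.25% for the smallest count, that of Snord34 in WT mock. With WT PKR, Snord32a had 67 counts in mock and 151 under palmitate, Snord33 65 and 155, Snord34 49 and 75, Snord35a 64 and 115 and Rpl13a 168 and 187. With RM PKR, Snord32a had 664 and 914, Snord33 534 and 432, Snord34 288 and 428, Snord35a 547 and 453 and Rpl13a 590 and 655.

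As CPM of the counted total, Snord33 was 2.30-fold higher in the WT palmitate library than in WT mock (interval 1.71 to 3.12), Snord32a 2.17-fold (1.62 to 2.94), Snord35a 1.73-fold (1.27 to 2.39) and Snord34 1.48-fold (1.02 to 2.16). Rpl13a was at 1.07-fold (0.867 to 1.33), and the median of all 12306 features was 1.14-fold. The 4 snoRNAs had a median of 1.86-fold, beside 1.68-fold for the 16 C/D snoRNAs of other ribosomal protein genes. For the 39 C/D snoRNAs of other hosts it was 1.66-fold, and for the 30 H/ACA snoRNAs 1.22-fold. With RM, Snord33 was at 0.701-fold (0.616 to 0.798) and Snord35a at 0.718-fold (0.633 to 0.815) of mock, while Snord32a was at 1.19-fold and Snord34 at 1.29-fold. Scaled by the library totals in the file headers, Snord33 and Snord35a with RM came to 0.935-fold and 0.958-fold, nearer to mock. Snord32a, Snord34 and Rpl13a with RM then came to 1.59-fold, 1.72-fold and 1.28-fold, further above mock. With WT that scaling gave 2.43-fold for Snord32a, 2.57 for Snord33, 1.65 for Snord34, 1.93 for Snord35a and 1.20 for Rpl13a. Snord34 was thus slightly higher with RM than with WT. WT mock stood below RM mock for all 5, at 0.137-fold for Snord32a, 0.165 for Snord33, 0.230 for Snord34, 0.158 for Snord35a and 0.386 for Rpl13a, where the median of all features was itself 0.27-fold. Medians there were 0.177-fold for the 4 snoRNAs, 0.195 and 0.200 for the 2 other C/D lists and 0.221 for the H/ACA snoRNAs.

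Ratios to the host in C were lowest in WT mock for all 4 snoRNAs. Snord33 had 0.387 counts per Rpl13a count in WT mock (interval 0.286 to 0.518) and 0.829 after palmitate (0.666 to 1.03). With RM it had 0.905 (0.804 to 1.02) and 0.660 (0.583 to 0.746). Snord35a had 0.381, 0.615, 0.927 and 0.692 in that order, Snord32a 0.399, 0.807, 1.13 and 1.40 and Snord34 0.292, 0.401, 0.488 and 0.653. The intervals of WT mock and WT palmitate overlapped for Snord34 and Snord35a and not for Snord32a and Snord33.

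**Figure D5:**
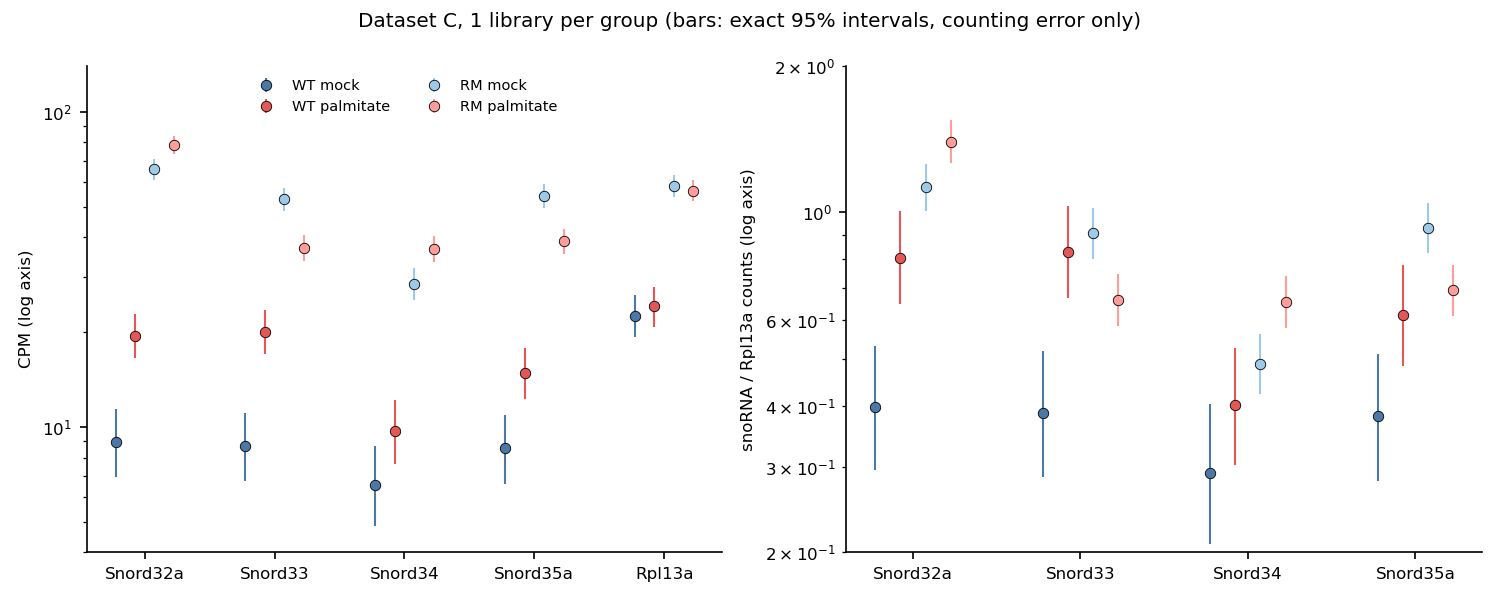
Dataset C, with 1 library per group: CPM of the 5 members (left) and the ratio of each snoRNA to Rpl13a counts (right), both on log axes, with exact 95% intervals for counting error. WT mock is the lowest point for every snoRNA in both panels, and Rpl13a is nearly level between mock and palmitate.

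The authors' deposited table gave log2 ratios of palmitate to mock for the same members. For WT in dataset B these were 1.09 for Snord33, 0.76 for Snord35a, 0.39 for Snord34, 0.05 for Snord32a and -0.48 for Rpl13a in the authors' deposited table. For WT in dataset C the authors' deposited table had 1.35 for Snord33, 1.27 for Snord32a, 0.94 for Snord35a, 0.71 for Snord34 and 0.26 for Rpl13a. For RM in dataset C the authors' deposited table had 0.78 for Snord34, above its WT value, 0.67 for Snord32a, 0.36 for Rpl13a, -0.10 for Snord33 and -0.06 for Snord35a. All 5 ratios for RM in dataset B were positive in the authors' deposited table, from 0.17 for Snord33 to 0.49 for Rpl13a. For dataset A the authors' deposited table had positive ratios for all 5 with WT, from 0.03 for Snord35a to 0.57 for Snord32a. Those for RM in A were all negative in the authors' deposited table, from -1.84 for Rpl13a to -0.34 for Snord33.

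Genes for proteins tied to these snoRNAs are given here with the share of all features called. Of 11 genes for the core and its assembly, Nop56 and Nolc1 rose with palmitate with WT in dataset B, by 0.50 ± 0.13 and 0.53 ± 0.14 on the log2 scale (edgeR adjusted p = 0.0173 and 0.0184). In that comparison 9.43% of all features rose. Nop56, which binds the guide RNA beside fibrillarin, also rose with RM by 0.56 ± 0.14 (adjusted p = 0.0249). For palmitate with RM in B 7.53% of features were called in either direction. Of 4 genes tested that had been linked to these snoRNAs or to palmitate toxicity, Snrpd3, a spliceosomal Sm protein, was higher with WT than with RM in mock cells of B by 0.50 ± 0.14 (adjusted p = 0.0261). Of the 3 partners of Rpl13a in translational silencing, Eprs was lower there by -0.46 ± 0.14 (adjusted p = 0.0356). For WT against RM in mock of B 14.1% of all features were called, 7.88% as lower. None of these 3 lists had a gene called in dataset A, where 0.0% to 3.74% of all features were called. Averaged over A and B, Nop58, Nufip1 and Nolc1 rose with palmitate with WT by 0.49, 0.81 and 0.53 and Rnaset2b fell by 0.67 (adjusted p = 0.00923, 0.00896, 0.00908 and 0.0459). That average called 9.52% of all features, 6.04% as higher. With RM, Znhit6 and Nolc1 rose in the average of A and B, by 0.69 and 0.50 (edgeR adjusted p = 0.0294 and 0.0144), and 0 of the 11 core and assembly genes were called for the difference between the PKR forms. All features were called at 9.04% with RM and at 0.0% for that difference.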

How the data were processed

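RNA recovered with PKR was counted per feature in 28 libraries: 3 per group in datasets A and B and 1 per group in C. CASAVA 1.7.0 and 1.8.2, Novoalign and the build mm9 are named in the submitters' processing notes. How features were counted, and whether strand was used, is not stated for A and B. The deposited values are raw counts per feature, and the authors' log2 ratios and scores stand beside them. 52 columns of sample values that could not be tied to a sample were not used. Of 29777 Ensembl IDs 25755 were found in GENCODE M21.

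Counts were tested with edgeR 4.0.16 in R 4.3.3 (TMM, filterByExpr, quasi-likelihood, 2-sided, Benjamini-Hochberg over all features, threshold 0.05), with A and B fitted apart and then together. DESeq2 1.42.0 was an alternative. The log2 ratio of snoRNA to host counts, with 0.5 added to each, was tested with limma 3.58.1 over all snoRNA and host pairs with a mean of at least 10 counts, and single ratios with the exact permutation test. C has 1 library per group and no test. The edgeR test and the limma test of ratios were checked on simulated counts, and DESeq2 and the exact permutation test were not. Named genes were the 5 members, their copies and overlapping features, the 3 features most like each member, and list genes that passed. Members and lists were chosen with earlier results of these data known. Alternatives were another tool, scaling or filter, a replicate block, and leaving out libraries. No 2 libraries of the same group in A or B agreed within sampling noise (smallest chi-square per degree of freedom 4.43). Libraries of different groups were not compared in this way. Values of 2 further genes are not reported here.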

Additional observations from a re-analysis of the deposited data

Results flagged for a closer look

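In dataset B the palmitate change of the ratio to Rpl13a differed between WT and RM PKR for 2 snoRNAs by the test of the difference itself. The log2 difference was 1.90 for Snord33 and 1.48 for Snord35a (limma adjusted p = 0.0420 and 0.0256). Dataset A had the opposite sign, at -1.71 for Snord33 and -1.17 for Snord35a, and neither passed (limma adjusted p = 0.563 for both). Averaged over A and B the difference was 0.09 and 0.15 (limma adjusted p = 0.939 and 0.822). The calls in B were thus not shared by A. The same test called 21.3% of the 89 pairs of a snoRNA and its host. Both ratios divide by the same Rpl13a counts, so they are not separate evidence. Of the 12 libraries left out in turn, the call was lost for Snord33 without 9 of them and for Snord35a without 6, and with ribosomal protein mRNAs as denominator 1 of the 4 ratios was called, beside 37.1% of pairs.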

How the results depend on the processing

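For palmitate with WT in B, 2 members were called with DESeq2 (13.9% of all features) and 2 with scaling by total counts (8.70%), against 1 (15.5%). For WT against RM in mock DESeq2 called 3 (13.3%), against 1 (14.1%). In the interaction of B 1 was called, against 0 (0.0%), with DESeq2 (3.78%), scaling by totals (0.955%), no filter (0.637%) and the replicate block (0.369%). Averaged over A and B palmitate with WT gave 0, against 1 (9.52%), with no filter (5.28%) and with the replicate block (9.37%). With ribosomal protein mRNAs as denominator 1 ratio was called in the interaction of B (37.1% of pairs), against 2 (21.3%), and 2 in the average with WT (55.1%), against 0 (18.0%); without RM palmitate replicates 2 and 3 of B the interaction gave 0. Directions turned as follows. The replicate block gave Snord32a 0.14 for palmitate with WT and -0.034 for WT against RM in mock in B. Replicate numbers did not pair the samples: correlations of same-numbered deviations had medians of 0.01 in A and 0.03 in B. Scaling by totals gave -0.088, -0.27, -0.041 and -0.065 for Snord32a, Snord33, Snord35a and Rpl13a after palmitate with RM in B, where Snord34 stayed at 0.055, and 0.13, 0.078 and 0.42 for Snord32a, Snord35a and Rpl13a between WT and RM under palmitate. No filter gave Rpl13a 0.013 there. Without RM palmitate replicates 2 and 3 of B, palmitate with RM was -0.26, -0.26, -0.084, -0.28 and -0.14 for Snord32a, Snord33, Snord34, Snord35a and Rpl13a, WT against RM under palmitate was 0.33, 0.33 and 0.51 for Snord32a, Snord35a and Rpl13a, and the Snord32a interaction was 0.039. The cause was not tested in any of these. Leaving out 1 library at a time in B moved Snord32a from -0.68 to 1.91 (palmitate with WT), -1.85 to 0.74 (WT against RM in mock) and -1.04 to 1.56 (interaction). It moved Rpl13a from -0.75 to 0.43, -0.060 to 1.12 and -1.13 to 0.052 in the same comparisons, from -0.23 to 0.24 between WT and RM under palmitate, and from -0.027 to 0.63 in the average with WT. Snord34 ran from -0.077 to 0.76 (interaction) and Snord33 from -0.033 to 0.34 (palmitate with RM). In A, palmitate with WT ran from -0.088 to 0.93 for Snord33, -0.081 to 1.04 for Snord34 and -0.064 to 0.84 for Snord35a, WT against RM in mock from -0.94 to 0.11 for Snord34 and -1.10 to 0.069 for Snord35a, and under palmitate from -0.079 to 0.77 for Snord33. Members called ran from 1 to 4 for palmitate with WT and for WT against RM in mock in B, both 4 without WT mock replicate 1, and from 0 to 1 for WT against RM under palmitate, the interaction of B and the average with WT. Ratios called ran from 2 to 4 for palmitate with WT and from 3 to 4 for WT against RM in mock in B, from 0 to 3 in the interaction of B, 0 to 3 in the interaction of B less A, and 0 to 1 in the average with WT. The shares of all features and pairs called in these reduced fits are not given here. These counts of members and ratios therefore describe how calls moved and are not a result about the members. Subtracting snoRNA counts from the host was not run, since it gave counts below 0. Depth limits RM palmitate replicate 2 of A most, with 254762 counts.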
